A study of Mus musculus with 6 samples.

Results

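The regions described here lay between genes, were already methylated at 50% or more in infant lung endothelial cells (EC), and were methylated further in young adult EC. They were chosen by the group means in the list of differentially methylated regions (DMRs) and by position: on chromosomes 1 to 19, with a young adult mean above the infant mean, an infant mean of at least 50%, and a midpoint outside every gene body and more than 1 kb from every transcription start site (TSS) of the curated RefSeq annotation. The rule found 2,791 of the 18,333 DMRs listed. Among all 18,168 autosomal DMRs, 53.7% gained methylation, and among the 5,905 whose midpoint was intergenic by the same rule, 77% did. Since the rule fixed the direction of the members, nothing is read from these shares.

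Genomic DNA came from lung EC of C57BL/6N mice at an infant age (3 samples, 8 to 10 days) and as young adults (3 samples, 8 to 12 weeks), with no treatment or transgene named for either group. According to the methods, the mice were female and the cells were sorted as CD31+ CD34+ cells that lacked PTPRC, LYVE1, LY76 and PDPN, so that leukocytes, lymphatic EC and erythroid cells were sorted away. Methylation was read by T-WGBS, whole-genome bisulfite sequencing of tagmented DNA, in which a transposase fragments the DNA and bisulfite converts unmethylated cytosine only. The list holds 1 mean per group and no value per sample, so neither the spread between replicates nor the coverage behind a mean is known, and no difference between the ages was tested here. Purity of the sorted cells could not be checked either, since a list of DMRs holds no expression.

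In mammals, methyl groups are put on the cytosines of CpG dinucleotides by the DNMT enzymes, and TET enzymes oxidise them, which can lead to their removal. Most CpGs between genes are methylated in most cells, while CpG islands and active enhancers are kept low.

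The sequences of 8 members are shown first, because they span the class from the largest to the smallest gain, from 3 to 7 CpGs, and from the vicinity of a gene to a gene desert. Each is named after the gene with the nearest TSS and is given 5′ to 3′ from the GRCm38 (mm10) reference, from the first to the last CpG of the DMR, with the CpGs in capitals.
Gm4668, chr9:116214145-116214357, plus strand: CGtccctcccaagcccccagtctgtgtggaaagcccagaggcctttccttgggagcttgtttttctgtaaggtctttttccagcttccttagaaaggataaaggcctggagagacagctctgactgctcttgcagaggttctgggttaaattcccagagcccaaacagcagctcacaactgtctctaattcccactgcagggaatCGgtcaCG
Gpr26, chr7:131774607-131774623, plus strand: CGCGagactgaaaaaCG
Gipc2, chr3:152167240-152167287, plus strand: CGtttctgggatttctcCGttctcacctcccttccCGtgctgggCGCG
Dleu2, chr14:61689878-61689977, plus strand: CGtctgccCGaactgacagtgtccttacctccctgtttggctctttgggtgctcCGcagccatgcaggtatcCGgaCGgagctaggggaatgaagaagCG
1700012H19Rik, chr11:112990490-112990719, plus strand: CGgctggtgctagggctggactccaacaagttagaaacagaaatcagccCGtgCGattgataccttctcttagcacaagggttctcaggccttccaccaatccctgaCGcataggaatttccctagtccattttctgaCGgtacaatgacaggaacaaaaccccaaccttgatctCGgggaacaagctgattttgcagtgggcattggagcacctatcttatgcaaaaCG
Iftap, chr2:99571339-99571407, plus strand: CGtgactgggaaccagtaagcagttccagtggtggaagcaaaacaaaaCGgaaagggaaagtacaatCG
Lrrc4c, chr2:99342394-99342547, plus strand: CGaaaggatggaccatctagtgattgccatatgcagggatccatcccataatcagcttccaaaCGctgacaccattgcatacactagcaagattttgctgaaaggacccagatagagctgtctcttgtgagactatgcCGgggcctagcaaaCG
Sult1c1, chr17:54120533-54120570, plus strand: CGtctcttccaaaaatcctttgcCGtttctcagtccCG

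The region near Gm4668 had the largest gain of the class: its mean was 50.6% for infant EC and 87.5% for young adult EC, a difference of 36.9 percentage points. Its 3 CpGs lay at the ends of 213 bp, and the nearest protein-coding TSS, 38.9 kb away, was that of Tgfbr2, the type II receptor for TGFβ. The region 191.8 kb upstream of Gpr26, an orphan G protein-coupled receptor gene, packed its 3 CpGs into 17 bp and changed from 50.3% to 85.9%. The regions near Gipc2 (1.36 kb upstream, 54.3% to 87.95%) and Dleu2 (7.55 kb upstream, 51.0% to 84.2%) held 5 and 6 CpGs and overlapped CpG islands. The fifth sequence held 7 CpGs in 230 bp and changed from 56.3% to 86.0%. Its nearest TSS was that of the noncoding gene 1700012H19Rik and its nearest protein-coding TSS, at 208.4 kb, that of Sox9, a transcription factor of cartilage and epithelial progenitors. The last 3 sequences lay largely in repeat-masked DNA, and those assigned to Iftap and Sult1c1 also overlapped CpG islands. The region assigned to Iftap was the farthest of the class from any TSS, at 2,050 kb, with 78.3% of its bases masked (76.6% to 92.7%). The region assigned to Lrrc4c was 1,875 kb from the TSS and masked over 100% of its bases (60.9% to 79.6%). The region near Sult1c1, also masked throughout, had the smallest gain, 10.003 points, and went from 89.997% to 100%.

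The typical member went from mostly methylated to nearly fully methylated. The infant mean had a median of 70.1% over the 2,791 members (quartiles 61.6% and 77.4%, range 50.1% to 89.997%), and the young adult mean a median of 88.4% (quartiles 82.2% and 93.1%, range 62.6% to 100%). The gain had a median of 17.3 percentage points (quartiles 14.5 and 20.7, range 10.003 to 36.9). Some ends of these ranges come from thresholds: the lowest infant mean from the rule, and both the lowest gain and the highest infant mean from the 10% that a DMR had to reach, since a region above 90% cannot gain 10 points. The young adult mean reached 80% in 2,282 members (81.8%), 90% in 1,196 (42.9%) and 100% in 11. A gain of at least 20 points was seen in 841 members (30.1%) and one of at least 30 points in 33 (1.18%), while 805 (28.8%) gained less than 15 points. Most members were gains of moderate size.

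The gain was smaller where the infant mean was higher. Among the 592 members with an infant mean of 50% to under 60%, the median gain was 22.4 points and the median young adult mean 77.8%. For the 796 members at 60% to under 70%, these values were 19.2 points and 84.6%. For the 943 members at 70% to under 80% they were 16.2 points and 91.4%, and for the 460 members from 80% to 90% they were 12.7 points and 96.3%. The gain in points thus became smaller towards the ceiling while the share of the unmethylated remainder that was filled became larger. The median of that share was 50.2%, 55.4%, 65.6% and 78.2% in the 4 bins. Both trends are in part arithmetic, because a fixed minimum gain takes a growing share of a shrinking remainder.

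The 2,306 intronic gain DMRs with the same infant threshold, placed more than 1 kb from any TSS as well, traced the same course. Their median gains in the 4 bins were 22.4, 19.3, 16.1 and 12.6 points, and their median gain as a whole was 17.0 points. The 1,753 intergenic gain DMRs that started under 50% had a median gain of 25.3 points and ended at a median of 57.3%, and only 22 of them (1.25%) reached 80% in young adults.

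**Figure D1:**
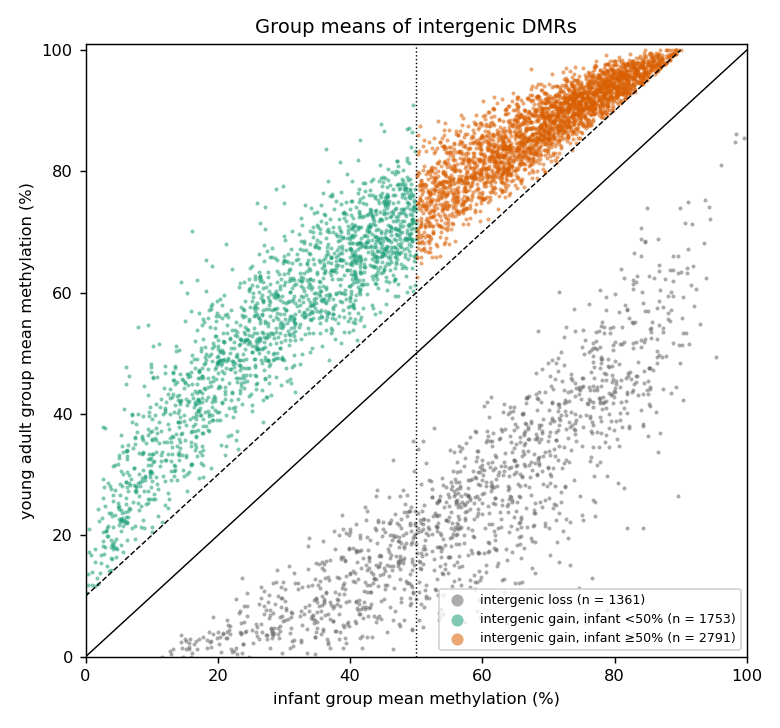
Group mean methylation in young adult (y axis, %) against infant EC (x axis, %) for intergenic autosomal DMRs, 1 point per DMR, in orange for the 2,791 members, green for 1,753 gains from under 50% and grey for 1,361 losses. The solid line marks equal methylation, the dashed line the 10-point minimum gain and the dotted line the 50% threshold; the orange points narrow into the upper right corner, where 42.9% of members reached 90% or more in young adults.

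The 50% threshold cut through a continuous cloud. The members just inside that are reported had infant means of 50.07% to 50.11% and gains of 12.5 to 20.35 points, and were nearest to Gm32693, Uqcrfs1, Pdzph1 and Gm5150. The 5 gains just outside had infant means of 49.91% to 49.98% and gains of 18.9 to 23.8 points, and were nearest to 1700028P15Rik, Tnrc18, Scd2, Mir6951 and Gm36718.

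Members held few CpGs. Exactly 3 CpGs, the minimum of the DMR calling, were found in 2,429 members (87.0%), compared with 87.3% of the intronic counterparts, 70.5% of the intergenic gains from under 50% and 57.2% of the intergenic losses. At least 5 CpGs were found in 77 members (2.76%). The median width from the first to the last CpG was 144 bp, beside 136 bp for the intronic counterparts, 116 bp for the intergenic gains from under 50%, 122 bp for the intergenic losses and 127 bp for all autosomal DMRs. The 77 members with at least 5 CpGs had a median gain of 21.8 points from a median infant mean of 61.3%, and those with 3 CpGs one of 17.2 points from 70.4%, so the starting levels differed as well. The largest number, 11 CpGs in 314 bp, was in a fully masked region 378.1 kb upstream of Cdh7, a cadherin gene, which went from 84.4% to 99.0%. CpG number and width come from the same calling as the means and are given without a test.

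By distance to the nearest TSS, members were spread almost as intergenic windows that hold at least 3 CpGs are. The median distance from the midpoint to the nearest TSS was 49.1 kb, and 1,388 members (49.7%) lay more than 50 kb away. As a background, intergenic DNA was cut into a grid of 200 bp windows, of which 1,285,009 held at least 3 CpGs. Their median distance was 49.3 kb and 49.7% lay beyond 50 kb. Farther than 100 kb were 893 members (32.0%) and farther than 500 kb 144 (5.16%), whereas 422 (15.1%) lay within 10 kb. Intergenic gains from under 50% stayed closer to genes, with 39.8% beyond 50 kb, an odds ratio of 1.495 for the members (95% interval 1.32 to 1.69, two-sided Fisher's exact test, adjusted p = 1.8e-10 over 5 tests). Of the intergenic losses, 26.8% lay beyond 50 kb. The nearest TSS was downstream of the member, which placed the member upstream of the gene, in 59.4%. This share was 62.7% for the intergenic gains from under 50% and 64.1% for the intergenic losses, so it was not particular to the members.

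Distance made little difference to the values. Median gains were 17.9 points for members within 10 kb of a TSS, 17.5 at 10 to 50 kb, 17.1 at 50 to 500 kb and 17.6 beyond 500 kb. The densities per chromosome were even as well, from 19.1 members per 10,000 grid windows on chromosome 3 to 25.5 on chromosome 8.

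**Figure D2:**
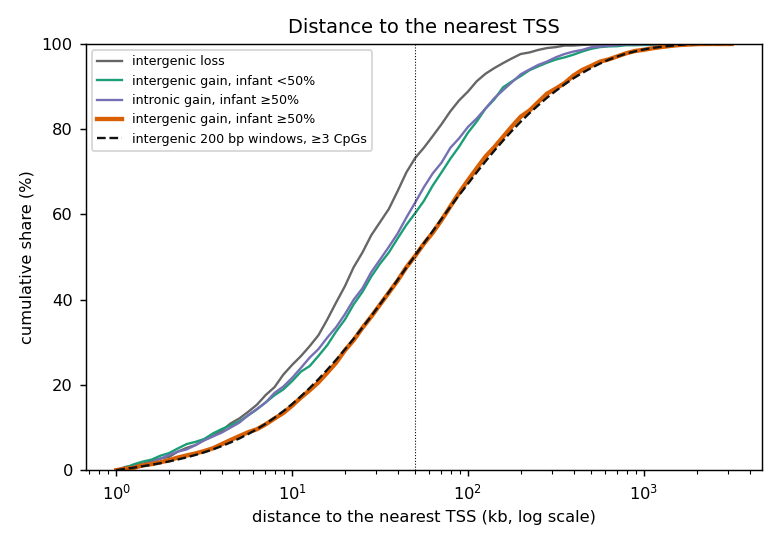
Cumulative share (y axis, %) of DMRs by distance of the midpoint to the nearest TSS (x axis, kb, log scale), 1 line per DMR class, with intergenic grid windows as the dashed line. The orange line of the members runs along that of the windows (49.7% of each beyond 50 kb, the dotted line), and the other classes reach high shares at shorter distances.

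CpG islands were rare among the members. Islands, defined as stretches of at least 200 bp with 50% GC and a CpG frequency over 0.6 times the one that base composition predicts, were overlapped by 94 members (3.37%, 95% Wilson interval 2.76 to 4.10). In introns the share was 3.21%, with an odds ratio of 1.05 (0.76 to 1.45, adjusted p = 0.81, two-sided Fisher's exact test), so a difference in either direction within that interval was not resolved. Among intergenic gains from under 50% it was 6.90%, and the odds of the members were lower (odds ratio 0.47, 0.35 to 0.63, adjusted p = 1.0e-07 by the same exact test). The grid windows gave 5.89%. Members in islands had nearly the median gain of the others, 17.5 against 17.3 points. By a stricter definition (500 bp, 55% GC, 0.65 times), 10 members overlapped an island.

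Repeat-masked sequence was more frequent among the members than in both other gain classes. The midpoint lay in repeat-masked sequence in 672 members (24.1%, 22.5 to 25.7). The share was higher than among the intronic gains from 50% or more (16.8%, odds ratio 1.57, 1.36 to 1.81, adjusted p = 3.4e-10) and the intergenic gains from under 50% (11.5%, odds ratio 2.45, 2.06 to 2.92, adjusted p = 1.8e-26, both by two-sided Fisher's exact test). It was still below the 35.3% of the grid windows, which are intergenic. No such windows were computed for introns. Whether the difference from the intronic gains is one between intronic and intergenic DNA at large was therefore not tested. The coverage that CpGs in repeats had was not analysed here. Within the class the masked share went with the starting level, from 21.1% at infant means under 60% to 29.6% from 80% on. By distance it was 24.4% within 10 kb of a TSS, 23.5% at 10 to 50 kb, 22.0% at 50 to 500 kb and 44.4% among the 144 members beyond 500 kb, so the share was higher in the last group and did not follow distance below it. Masked members started at a median of 71.6% and ended at 89.8%, and the others at 69.7% and 87.99%.

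These tests compare regions of the genome, not mice, and neighbouring regions are not independent. With 1 DMR kept per run of DMRs at most 10 kb apart, the odds ratio for masked midpoints was 1.66 against introns (adjusted p = 4.1e-11) and 2.55 against intergenic gains from under 50% (adjusted p = 1.1e-23), that for islands against the latter 0.55 (adjusted p = 0.00052) and that for distance 1.43 (adjusted p = 3.6e-07), each by Fisher's exact test.

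**Figure D3:**
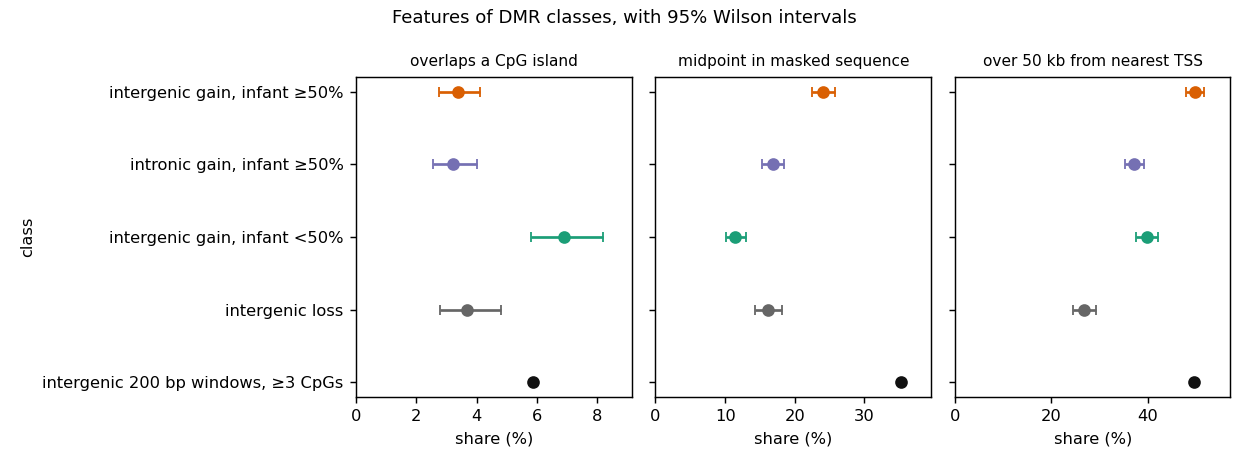
Share (x axis, %) of each DMR class, and of intergenic 200 bp windows with at least 3 CpGs, that overlapped a CpG island, had its midpoint in repeat-masked sequence or lay over 50 kb from the nearest TSS. Points are shares and bars 95% Wilson intervals, which cover the number of regions only; in masked sequence the members (24.1%) stand above the other DMR classes and below the windows (35.3%).

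Members mostly stood alone. The median distance to the nearest other listed DMR was 49.3 kb, compared with 8.86 kb for all autosomal DMRs, and 616 members (22.1%) had another DMR within 10 kb, compared with 52.0% of all. Of the 2,638 runs that held a member, 2,175 (82.4%) consisted of that member. The nearest other DMR, which could lie inside or outside genes, was a gain for 2,206 members (79.0%), beside 51.4% of all autosomal DMRs. Gains made up 53.7% of all autosomal DMRs and 77% of the intergenic ones. For the members the share was 81.0% where that neighbour was within 10 kb and 78.5% where it was farther away. For all autosomal DMRs these shares were 36.8% and 67.3%. For the intronic gains from 50% or more the same shares were 78.8% and 76.5%, and for the intergenic gains from under 50% they were 87.8% and 73.9%. Differences between the classes in these shares were not tested.

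The longest run that consisted of members was on chr11:64187881-64201640, 23.5 to 37.1 kb downstream of the TSS of the noncoding gene Gm12290. Its first region held 4 CpGs and went from 60.4% to 88.6%. The second and the third, with 3 CpGs each, went from 64.0% to 82.4% and from 68.3% to 85.1%. Larger runs mixed members with other DMRs. A run of 9 gains near Prdm11, a member of the PRDM family of transcription regulators, held 4 members (median gain 22.2 points), as did a run of 7 gains near Prdm8 (19.3 points) and one of 5 gains near Chst15 (21.5 points).

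Between gene bodies, 1,955 of 21,361 intervals held a member, 1,448 of them exactly 1 and 34 at least 5. Every such interval holds a gain by the rule, and 1,658 of them (84.8%) held no loss, a share for which no background was computed. The interval with the most members lay between Ackr3, a scavenging receptor for the chemokine CXCL12, and Cops8, a subunit of the COP9 signalosome (chr1:90215725-90603424). It held 19 DMRs, 16 of them gains, and 9 members with infant means around a median of 67.6% and gains of 15.3 to 27.1 points. The 3 losses of this interval lay 72.3 to 79.5 kb from the Ackr3 TSS, and the first member lay 22.1 kb from it. Of its 9 members, 1 overlapped a CpG island. The interval between Tex29 and Sox1ot also held 9 members, with a median gain of 14.5 points and 1 loss among 14 DMRs. The intervals of Sox11 and Dcdc2c and of A330074K22Rik and Gse1 held 8 members each, and that of Gadd45g and 4921525O09Rik held 7. In these 3, the median gains were 14.9, 22.1 and 18.3 points.

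**Figure D4:**
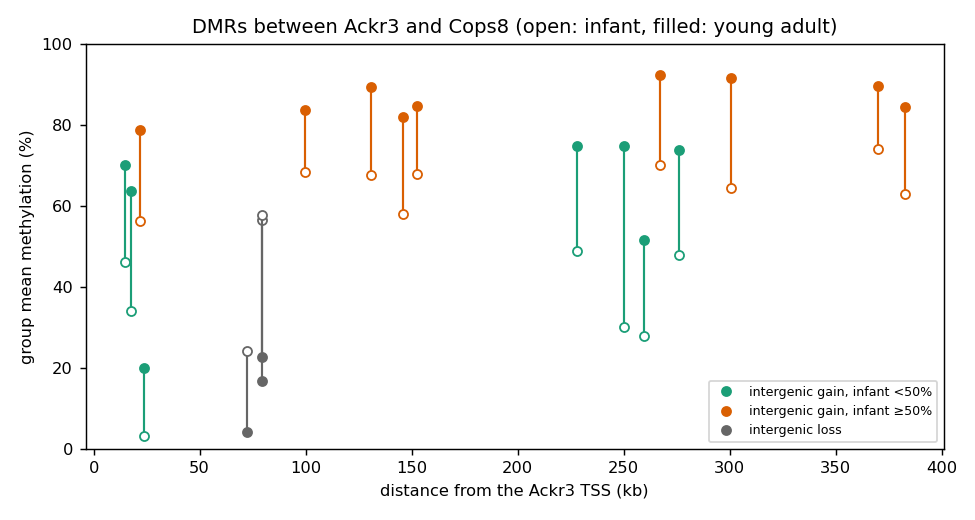
All 19 DMRs between Ackr3 and Cops8, placed by distance from the Ackr3 TSS (x axis, kb), with group mean methylation (y axis, %) of infant (open circle) and young adult EC (filled circle) joined by a line. The 9 members (orange) gained 15.3 to 27.1 points and occur from 22.1 kb onwards, among 7 gains from under 50% (green), and the 3 losses (grey) sit together at 72.3 to 79.5 kb.

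By nearest TSS, the members fell to 2,131 genes, of which 1,679 had 1 member and 47 at least 4. Adgrl2, an adhesion G protein-coupled receptor gene, had the most, with 8 members 53.5 to 316.5 kb from its TSS, which gained 14.1 to 31.5 points. Most DMRs that were nearest to Adgrl2 were losses (37 of 47). Efnb2, which encodes the arterial ephrin ligand ephrin-B2, followed with 7 members, all downstream of its gene start and 59.2 to 440.5 kb away, with gains of 12.9 to 20.3 points. Genes with 6 members were Chst15, Sox11, Gse1, Gadd45g, Ackr3, 9430078K24Rik, Gm19385 and Klf4. At Chst15, a sulfotransferase of chondroitin sulfate synthesis, all 6 lay upstream, at 20.2 to 87.4 kb, with gains of 13.6 to 29.7 points. The nearest gene is a label for a position, and distances of this size do not tell which gene, if any, a region acts on.

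Among genes of endothelial identity, 16 members (0.57%) were nearest to 7 of 28 listed genes, beside 0.87% of all autosomal DMRs, 1.43% of the intergenic gains from under 50% and 0.23% of the grid windows. Klf4, a shear-responsive transcription factor, had 6 members 52.2 to 574.5 kb from its TSS with gains of 17.2 to 21.5 points. Fli1, an ETS factor of blood and endothelium, had 4 members upstream within 26.2 kb. The pair closest to the Fli1 TSS, at 4.12 and 4.29 kb, went from 52.1% to 76.6% and from 68.6% to 86.6%. The other pair, at 24.7 and 26.2 kb, went from 55.7% to 81.0% and from 50.3% to 79.9%. No loss was listed among the 19 DMRs nearest to Fli1. Vwf, the gene of von Willebrand factor, had 1 member, 2.67 kb upstream, with a gain of 31.4 points from 52.4% to 83.8%. Kdr, the main VEGF receptor, had 2 members with gains of 18.4 and 15.6 points. The remaining 3 genes, Sox7, Sox17 and Gja5, had 1 member each with gains of 26.0, 13.96 and 10.03 points. Losses made up 5 of the 12 DMRs nearest to Klf4, 4 of 16 at Kdr and 2 of 4 at Sox7. At Vwf, Sox17 and Gja5 no loss was listed.

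Among angiogenic signalling genes, 34 members (1.22%) were nearest to 19 of 44 genes found, beside 1.46% of all autosomal DMRs, 1.83% of the intergenic gains from under 50% and 0.53% of the grid windows. Besides Efnb2, Fgfr2, a receptor for fibroblast growth factors, had 4 members with gains of 12.7 to 20.1 points. Flt1, the decoy receptor for VEGF, had 3 members upstream, at 1.25, 24.0 and 52.7 kb. They went from 52.3% to 80.3%, from 61.6% to 90.5% and from 61.8% to 82.0%. Cxcr4, the signalling receptor for CXCL12, and S1pr1, a receptor for sphingosine 1-phosphate, had 2 each, with median gains of 20.8 and 17.99 points. Losses made up 16 of the 24 DMRs nearest to Efnb2, 14 of 20 at Flt1, 5 of 8 at S1pr1, 2 of 9 at Fgfr2 and 0 of 6 at Cxcr4.

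Of the TGFβ family, 17 members (0.61%) were nearest to 12 of 45 genes, beside 1.23% of all autosomal DMRs, 0.74% of the intergenic gains from under 50% and 0.32% of the grid windows. Smad5, a signal transducer of BMP receptors, had 4 members 13.4 to 37.8 kb upstream, with gains of 27.2, 18.8, 29.8 and 22.3 points. Their infant means, in the same order, were 56.0%, 62.7%, 54.3% and 57.7%. Members that started at 50% to under 60% had a median gain of 22.4 points, and those at 60% to under 70% one of 19.2 points. Bmp7, a ligand, and Smad6, an inhibitor, had 2 members each with median gains of 15.4 and 13.998 points. Of the DMRs nearest to Smad6, 64 of 68 were losses, and the members lay 99.97 and 125.9 kb from its TSS. Id1, a BMP target, had a 5-CpG member 17.9 kb upstream with a gain of 27.6 points, and Nog, a BMP antagonist, one with 26.1 points.

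NOTCH genes were nearest to 5 members (0.18%, beside 0.26% of all autosomal DMRs, 0.63% of the intergenic gains from under 50% and 0.12% of the grid windows): 2 at Hes1, a target of the pathway, with gains of 25.9 and 21.4 points, and 1 each at the ligand Jag1 (20.5 points), the feedback inhibitor Nrarp (17.6 points) and the target Heyl (15.3 points). Both regions at Hes1 overlapped a CpG island. Semaphorins and their receptors were nearest to 10 members (0.36%, beside 0.81%, 0.57% and 0.18% in the same order), of which Sema3e, a repulsive guidance cue for EC, had 2, with a median gain of 21.0 points. Genes of DNA methylation and demethylation were nearest to 8 members (0.29%, beside 0.19% of all autosomal DMRs and 0.11% of the grid windows). Of these, 6 lay near Gadd45g, which has been linked to demethylation, with gains of 14.8 to 24.5 points, and 1 lay 1.13 kb upstream of Tet2, an oxidase of 5-methylcytosine, with a gain of 26.9 points from 51.9% to 78.7%.

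Developmental transcription factors, listed by family prefix, were nearest to 50 members (1.79%), a share close to those of all autosomal DMRs (1.85%) and the grid windows (1.76%), beside 2.80% of the intergenic gains from under 50%. The share rests on the annotation and was 0.26% when predicted transcripts were added. The shares of all autosomal DMRs and of the grid windows were not recomputed in that setting. The other lists rest on the same curated annotation and were not recounted with predicted transcripts. Sox11 had 6 members. The nearest of them, 1.36 kb upstream of its TSS, gained 29.5 points from 67.4% to 96.9%. Sall1 and Foxl1 had 4 members each, and Pax8, Irx3 and Foxa1 3 each, with median gains of 25.7, 24.2 and 19.9 points. Receptor families that form large clusters, such as olfactory, vomeronasal and taste receptors, were nearest to 26 members (0.93%), each at a different gene. This exceeded the 0.23% of all autosomal DMRs and remained below the 2.22% of the grid windows. Cadherins and protocadherins were nearest to 19 members (0.68%, beside 0.41% of all autosomal DMRs and 0.73% of the windows). None of these lists was tested.

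Lists of markers for other lung cells were almost empty. Of the members, 1 was nearest to an epithelial marker (Sftpb, a surfactant protein of alveolar epithelium, 1.86 kb upstream, 68.0% to 87.0%), and 0 were nearest to mesenchymal, immune or lymphatic markers. Among all autosomal DMRs, these lists had 3, 5, 1 and 0. Of the grid windows they took 0.024%, 0.072%, 0.019% and 0.027%, so such small counts are not particular to the members. Of 24 imprinted genes, Meg3 had 1 member. These are counts of regions near genes and say nothing about expression.

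Enhancers listed in RefSeq were touched by few members, at about the share of all autosomal DMRs. The paper reports that its DMRs coincided with putative enhancer regions of lung, which were not used here. RefSeq lists 1,006 enhancers on the autosomes, among them VISTA elements tested in transgenic mouse embryos, and 10 members (0.36%) overlapped one, beside 0.37% of all autosomal DMRs and 0.91% of the intergenic gains from under 50%. Most of the enhancers that members overlapped were VISTA elements active in brain or neural tube. A VISTA element active in heart, 40.7 kb from the Furin TSS, held a member that went from 62.4% to 82.7%. One active in midbrain held the member 172.1 kb from Efnb2 (53.5% to 71.2%), and one active in neural tube and hindbrain the member 74.3 kb from Gadd45g (55.9% to 74.2%). Regions shown by deletion or interference to act on Runx3, Med13l and Cbfa2t2 in neurons or embryonic stem cells held 1 member each.

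Short sequence motifs of transcription factors were counted on both strands in the 200 bp around each midpoint, once per window. Letters searched for single families were TGANTCA for AP-1, AGATAA for the GATA family, GTAAACA for forkhead, ACAATGG for SOX and TAATTA for homeodomain factors. For RBPJ, the NOTCH effector, they were GTGGGAA, for TEAD ACATTCC, for KLF CCACACCC and for RUNX TGTGGTT. For ETS factors they were CAGGAAG, or CCGGAAG where a CpG was included. The cyclic AMP element was TGACGTCA, the SMAD palindrome GTCTAGAC, and the E-boxes CAGCTG or CACGTG. Longer motifs with free positions were those of IRF, CTCF, NF1 and MEF2. A window can hold several, and the RUNX letters share TGTGG with the reverse of the KLF letters. The shares are descriptions of letters and not of binding.

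For AP-1, homeodomain, CAGCTG and MEF2 letters the Wilson interval of the members lay above the share of the grid windows, for KLF and CACGTG letters it lay below, and for the other motifs it held that share. Several of these shares were not particular to the members. The intronic gains from 50% or more had 6.37% for AP-1, 5.68% for homeodomain, 11.1% for CAGCTG and 2.91% for CACGTG, all inside the members' intervals. Their shares for MEF2 (2.86%) and KLF (1.82%) lay outside. ETS letters without a CpG, which factors such as Fli1 and Erg recognise, were found in 7.31% of members and 7.27% of grid windows, while the intergenic gains from under 50% had 14.8% and the intergenic losses 10.9%. Forkhead letters were found in 2.76% of members, 3.04% of windows and 5.95% of losses, and GATA letters in 11.0%, 10.4% and 15.9%. KLF letters were found in 22 members (0.79%, Wilson interval 0.52 to 1.19), beside 1.60% of windows, 1.03% of gains from under 50% and 3.23% of losses. The homeodomain letters were in 6.13% of members (5.30 to 7.08), beside 4.56% of windows, 6.10% of gains from under 50% and 2.42% of losses. The E-box CAGCTG was in 11.0% of members and 9.06% of windows, with 15.8% among gains from under 50%. MEF2 letters were in 3.58% of members (2.95 to 4.34) and 2.59% of windows, and AP-1 letters in 6.70% (5.83 to 7.69) and 5.64%. The E-box CACGTG was in 3.33% of members (2.73 to 4.06) and 4.57% of windows. Of 19 motifs, 8 had a higher share in the members than in the windows. The members' windows held a mean of 3.34 CpGs and 46.0% GC, and the grid windows, chosen for at least 3 CpGs, 4.23 and 46.7%. The first quartile was 1 CpG for the members' windows and 3 for the grid windows. GC content was thus close, but CpG content was lower in the members' windows. Motifs that hold a CpG, such as CACGTG, were not compared at equal CpG content.

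**Figure D5:**
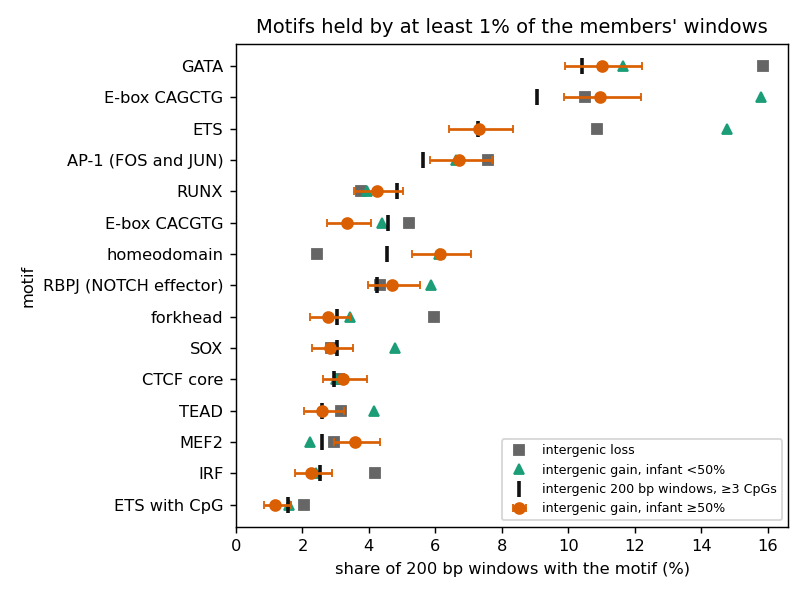
Share of 200 bp windows (x axis, %) that hold each motif (y axis), for the 15 motifs found in at least 1% of the members' windows. Orange points are the members with 95% Wilson intervals, triangles intergenic gains from under 50%, squares intergenic losses and black ticks the grid windows; for ETS without a CpG the members (7.31%) coincide with the windows (7.27%), apart from the gains from under 50% (14.8%).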

How the data were processed

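The authors trimmed adaptors with SeqPrep, aligned T-WGBS reads with BWA (0.6.1) to in silico converted mm10, removed duplicates, and called methylation from bases of Phred quality 20 or more without the 9 bp at tagmented ends. Regions were called with bsseq in R (3.2.2) on unsmoothed data, from CpGs at 8-fold coverage or more in at least 2 of 3 samples per group, as at least 3 consecutive CpGs with p under 0.05 each (t-test) and a group difference of at least 10%. Methylation is deposited as a fraction per group, which the authors averaged over its 3 samples, and was multiplied to percent. Because selection used the same samples, differences are those of selected regions. The deposited nearest promoter was not used.

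First and last position held a CpG in 18,333 of 18,333 DMRs. Midpoints were placed on 45,657 curated RefSeq transcripts of 26,089 genes (GRCm38.p6). Masked bases were the lower-case letters of the reference. Shares carry 95% Wilson intervals, which cover the number of regions only. In 5 comparisons of features that the rule did not use, Fisher's exact test (scipy 1.17.1, two-sided) was adjusted by Benjamini-Hochberg. Simulated independent counts checked odds ratios and intervals of a related estimator, but not the p-values or the dependence between neighbouring regions. Python 3.11.15, pandas 2.3.3, numpy 2.4.6 and matplotlib 3.10.9 were used.

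The members, gene lists and motifs were chosen with earlier results of these data known. Names that a family prefix caught wrongly, such as Tbxas1, were removed after the counts were seen. The regions named were the 10 largest and 5 smallest gains, the 5 with the most CpGs, the 5 farthest from a TSS, the 5 on each side of the threshold and the longest run of members, and those described are a selection from them, of which 1 is not reported here; the genes named were nearest to them, had the most members, flanked the 5 fullest intervals or led a list (at most 6 by members and then gain). The runs, the other genes nearest to them and the enhancers were named after their values were seen. Alternatives were other infant thresholds, annotations, distances, differences, CpG minimums, island and repeat definitions, run gaps, motif windows and 1 DMR per run. RNA-seq was not analysed here.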

Additional observations from a re-analysis of the deposited data

How the results depend on the processing

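No paired analysis was possible because the list holds 1 mean per group, and for the same lack of values per sample no sample was left out in turn. Of the 104 values recomputed, 75 kept their direction and side of the threshold or stayed within their spread. A minimum difference of 20% left 841 members and at least 5 CpGs left 77, by construction. When predicted transcripts were added to the annotation, 2,304 of the 2,791 members still met the position rule. The median gain was 18.2 points with an infant minimum of 40%, 16.3 with 60%, 22.9 at a 20% difference, 21.8 at 5 CpGs and 17.1 with 1 DMR per run. The odds ratio for islands against introns, which was not past the threshold, turned to 0.96 at an infant minimum of 40% (adjusted p = 0.78) and 0.97 with 1 DMR per run (adjusted p = 0.86, both Fisher's exact test). With at least 5 CpGs, where 77 members remained, 3 calls were lost by Fisher's exact test: islands against gains from under 50% (odds ratio 0.54, adjusted p = 0.22), masked midpoints against introns (2.43, adjusted p = 0.12) and distance over 50 kb (1.64, adjusted p = 0.13). The nearest other DMR was a gain for 68.7% at a 20% difference and 48.1% at 5 CpGs. Members with another DMR in the run made up 24.2% and 20.1% at infant minimums of 40% and 60%, 20.2% when predicted transcripts were added, 25.8% at a 20% difference, 11.7% at 5 CpGs, and 7.06% and 50.1% with run gaps of 2 and 50 kb. Members sharing an interval with another made up 48.1%, and in the same order 52.8%, 42.3%, 31.1%, 28.1% and 2.60%, and 41.0% with 1 DMR per run. The share nearest to a developmental transcription factor fell to 0.26% with predicted transcripts and was 2.60% at 5 CpGs. Apart from the changes stated, the cause was not tested. The coverage per region, which would limit small gains most, is unknown.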

Other observations

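Outside the autosomes, the X chromosome carried 165 DMRs, of which 157 were gains. By the same position rule, 55 of these DMRs were intergenic, 53 of them gains, and 34 of the gains had an infant mean of at least 50%. These 34 regions started at a median of 67.9%, ended at a median of 86.7% and gained a median of 17.9 points, beside 17.3 points for the autosomal members.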
